A study of Homo sapiens with 8 samples.

Results

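The sgRNAs described here target cytokines, interferons, their receptors and the JAK-STAT relay. They were chosen by gene symbol alone, as all symbols of the sgRNA table that begin with IL and a digit, IFN, STAT and a digit, or TNF, together with JAK1, JAK2, JAK3 and TYK2. The choice gave 425 sgRNAs against 61 genes, out of 10429 sgRNAs, of which 9929 target 1420 genes and 500 are controls. All genes had 7 sgRNAs except IFNA10, which had 5. By role they comprised 9 interferon ligands, 16 interleukin ligands, 6 TNF family ligands, 4 interferon receptors, 12 interleukin receptors, 9 TNF family receptors and 5 JAK-STAT genes.

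The screen searched for genes that set the level of PRMT5, an arginine methyltransferase, in COV362 cells, a high-grade serous ovarian cancer line labelled as chemo-resistant and WT in genotype. All cells carried Cas9 and the sgRNA library, and were cultured as 4 replicates split after transduction, then stained for PRMT5 and sorted into a PRMT5 high tail and a PRMT5 low tail. The 8 libraries are therefore 4 of each tail from 1 transduced culture of 1 line, and cells from before the culture or the sort were not analysed here. No change in a gene, its transcript or its protein was measured, and how much each sgRNA edited its target is unknown.

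Cytokines are secreted or membrane-bound signals that cells use to talk to one another, chiefly in immunity. Interferons and many interleukins bind paired receptor chains that carry Janus kinases (JAK1, JAK2, JAK3, TYK2), which phosphorylate STAT transcription factors. Interleukin-1 and the TNF family signal instead through adaptor proteins to NF-kappa-B and the stress kinases. In a pooled screen each cell normally lacks only 1 gene, and a secreted ligand can still reach it from its neighbours, whereas a receptor or kinase acts within the cell that carries the sgRNA.

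The deposited values are means over the 4 libraries of a tail. The value of a single library is therefore not shown, and errors come from the deposited variances. Abundance is in CPM, the reads of an sgRNA scaled to the same total in each library, and the ratio of an sgRNA is log2 of CPM plus 1 in PRMT5 low over CPM plus 1 in PRMT5 high. A negative ratio means that the sgRNA was more abundant in PRMT5 high cells. The table names the tails only as a and b. The legend of the screen puts positive ratios in PRMT5 low, which is followed here, while the methods text words the sign the other way. With this assignment KEAP1, which the study followed up as a gene enriched in PRMT5 high cells, is on the PRMT5 high side. It had the lowest mean ratio of all 1420 genes, -0.62, with 7 of 7 sgRNAs below 0. In the paper, depletion of KEAP1 raised PRMT5 protein on Western blots, which is the direction of this assignment. Under the other reading of the sign every direction given here would be turned. Depth worked back from the variances was 16166859 reads for PRMT5 high and 19117396 for PRMT5 low, and a median member sgRNA had 1575 and 1850 reads. The 500 control sgRNAs had a mean ratio of 0.019 ± 0.25 (SD) and 5th and 95th percentiles of -0.39 and 0.43.

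The cytokine and JAK-STAT genes as a whole were spread almost evenly between the tails. The mean ratios of the 61 genes ran from -0.29 for STAT3 to 0.24 for IFNG, with a median of 0.0065, against -0.0033 over all 1420 genes. Of the 61, 32 had a mean above 0 and 29 below 0. The SD of the gene means was 0.098, compared with 0.120 over all genes. Single sgRNAs ranged from -0.89 for IL1B_3 to 1.10 for IL4_1.

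A gene was called when its one-sided p by Fisher's method over its sgRNAs was under 0.01 and its mean ratio lay beyond 0.25 in that direction. By this rule 1 of the 61 genes, IL1B, was called toward PRMT5 high (0.845% of all genes were) and 0 were called toward PRMT5 low (0.704% of all genes were). At an unadjusted one-sided p under 0.05, Fisher's method placed 4 members toward PRMT5 high (6.56%, against 9.30% of all genes) and 10 toward PRMT5 low (16.4%, against 8.59%). After Benjamini-Hochberg adjustment over the 1420 genes, 0 members had a p under 0.05 in either direction. Over all 1420 genes, only 3 did toward PRMT5 high and 2 toward PRMT5 low. The 4 toward PRMT5 high were IL1B, TNFSF13B, TNFRSF18 and STAT3. The 10 toward PRMT5 low were IL1R1, IL3RA, TNFRSF13C, IL13, IL11RA, IFNA8, IL2RA, IFNA7, IFNG and IFNA5.

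None of these 14 p-values held against leaving out 1 sgRNA. With the sgRNA that mattered most left out, 0 of the 4 and 0 of the 10 stayed under 0.05. In 6 of the 14 cases that sgRNA had a variance between libraries at the level of pure read counting in both tails, which was so for 17 of 425 member sgRNAs and for 2.43% of all targeting sgRNAs. Such a variance is the smallest the test can use and can give a small p to a modest ratio. The 14 sgRNAs were picked by their effect on p, which depends on the variance. No conclusion is therefore drawn from the difference in these shares.

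At the level of sgRNAs, 25 of 425 (5.88%) passed a one-sided p under 0.05 toward PRMT5 high, next to 6.00% of targeting and 6.60% of control sgRNAs. Toward PRMT5 low 29 (6.82%) passed, next to 5.66% of targeting and 9.00% of control sgRNAs. Below the 5th percentile of the controls lay 26 member sgRNAs (6.12%, against 8.37% of targeting sgRNAs), and 22 (5.18%, against 5.96%) lay above the 95th. The spread of the ratio depended on abundance: its SD was 0.39 over the 66 member sgRNAs under 50 CPM, 0.30 over the 158 between 50 and 100 CPM and 0.20 over the 201 above 100 CPM. Among the rarer sgRNAs a ratio of 0.4 was thus an ordinary value.

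IL1B, on chromosome 2 (112829751 to 112836779, GRCh38.p14), encodes interleukin-1 beta, a secreted inflammatory cytokine made as a precursor and cut by caspase-1. Its sgRNAs averaged 67.7 CPM in PRMT5 high and 56.7 CPM in PRMT5 low. The mean ratio was -0.25 ± 0.34 (SD over 7 sgRNAs), or 1.19-fold toward PRMT5 high, with p = 0.000688 and adjusted p = 0.103 by Fisher's method. IL1B ranked 9 of 1420 by that p.

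A single sgRNA stood far from the other IL1B sgRNAs. IL1B_3 had 84.7 CPM in PRMT5 high and 45.2 CPM in PRMT5 low, a ratio of -0.89 ± 0.063 (SE), and its variance was at the counting level in both tails. Its p was 1.04e-05 in the one-sided beta-binomial sgRNA test of CB2, and its adjusted p over all sgRNAs was 0.0542. It was the lowest ratio of all 425 member sgRNAs.

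The other IL1B sgRNAs lay within the range of the controls or just beyond it. IL1B_1 went from 67.4 CPM in PRMT5 high to 49.4 in PRMT5 low (-0.44), IL1B_6 from 90.8 to 73.7 (-0.30), IL1B_2 from 72.1 to 62.2 (-0.21) and IL1B_7 from 28.1 to 25.7 (-0.12). IL1B_4 went from 44.9 to 46.9 CPM (0.061) and IL1B_5 from 85.7 to 94.0 (0.13). Thus 5 of 7 sgRNAs were below 0. Without IL1B_3 the mean was -0.15 with p = 0.285 by Fisher's method, so the call depended on it.

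Among the partners of IL1B, IL1A and IL1R1 had means of the opposite sign and IL1R2 of the same sign. IL1A encodes interleukin-1 alpha, which binds the same receptor, and had a mean ratio of 0.11 ± 0.34 with p = 0.0627 toward PRMT5 low by Fisher's method. Its lead came from IL1A_3, at 30.9 CPM in PRMT5 high and 53.1 in PRMT5 low (0.76). IL1A_1 had 86.5 and 111 CPM (0.36), IL1A_4 240 and 253 (0.074), and IL1A_2 29.1 and 29.6 (0.026). The remaining sgRNAs were slightly below 0, with IL1A_5 at -0.16, IL1A_6 at -0.18 and IL1A_7 at -0.089.

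IL1R1, the receptor that carries the interleukin-1 signal into the cell, had the smallest p toward PRMT5 low of all members. Its mean ratio was 0.13 ± 0.28, with 6 of 7 sgRNAs above 0, p = 0.00359 and adjusted p = 0.232 by Fisher's method. A pair of sgRNAs made this p. IL1R1_7 went from 53.9 CPM in PRMT5 high to 76.7 in PRMT5 low (0.50) and IL1R1_2 from 137 to 192 (0.48), with p = 0.00198 and p = 0.00210 in the one-sided beta-binomial sgRNA test. The rest lay between -0.28 for IL1R1_4 and 0.15 for IL1R1_6, and without IL1R1_7 the gene's p was 0.0694. IL1R2, a decoy receptor that binds interleukin-1 without signalling, had a mean of -0.059 ± 0.12 with 5 of 7 sgRNAs below 0 (p = 0.148 toward PRMT5 high, Fisher's method).

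Type I and type II interferons are the antiviral and macrophage-activating branches of the family. The 9 interferon ligands had a median gene mean of 0.038, with 5 above 0 and 4 below, and 4 of them (IFNA8, IFNA7, IFNG and IFNA5) had p under 0.05 toward PRMT5 low (8.59% of all genes did) while 0 did toward PRMT5 high (9.30% of all genes). None was called, and all 4 rose above 0.05 without their most influential sgRNA.

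IFNG, the single type II interferon, lies on chromosome 12 (68154768 to 68159740) and had the highest mean ratio of all members. Its sgRNAs averaged 104 CPM in PRMT5 high and 121 CPM in PRMT5 low, a mean ratio of 0.24 ± 0.25 or 1.18-fold, and 6 of 7 were above 0. The sgRNAs in order were IFNG_3 (0.66), IFNG_2 (0.46), IFNG_1 (0.25), IFNG_7 (0.18), IFNG_5 (0.14), IFNG_6 (0.033) and IFNG_4 (-0.057). IFNG thus leaned the same way in nearly all sgRNAs, but its p of 0.0402 became 0.523 after adjustment (Fisher's method with Benjamini-Hochberg).

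The alpha interferons are closely related secreted proteins from a gene cluster on chromosome 9, where the members lie between 21186618 and 21441316. IFNA7 had a mean ratio of 0.16 ± 0.19 with 6 of 7 sgRNAs above 0 (p = 0.0392 toward PRMT5 low, Fisher's method, adjusted 0.520), and IFNA5 a mean of 0.038 ± 0.19 (p = 0.0471, adjusted 0.562). IFNA8 had a mean of 0.15 ± 0.34 (p = 0.0300, adjusted 0.508, Fisher's method). Much of it came from IFNA8_7, at 61.3 CPM in PRMT5 high and 104 in PRMT5 low (0.75). IFNA8_3, IFNA8_1, IFNA8_4 and IFNA8_6 had ratios of 0.28, 0.26, 0.15 and 0.061, and IFNA8_2 and IFNA8_5 had -0.23 and -0.22.

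The other alpha interferons were close to 0 or on the other side of it. IFNA1 had a mean of 0.050 ± 0.18, IFNA6 -0.024 ± 0.21, IFNA2 -0.036 ± 0.26 and IFNA4 -0.045 ± 0.17. IFNA10 was lowest at -0.11 ± 0.36, through IFNA10_1, which had 86.0 CPM in PRMT5 high and 51.4 in PRMT5 low (-0.73). The other IFNA10 sgRNAs had ratios of 0.15 (IFNA10_2), 0.12 (IFNA10_6), 0.037 (IFNA10_7) and -0.13 (IFNA10_3). By the sign of the gene mean the 8 alpha genes divided evenly, 4 above 0 and 4 below. Their 54 sgRNAs did not, with 33 above 0, 21 below and a median ratio of 0.051. Of the 9929 targeting sgRNAs, 4940 were above 0. Whether an sgRNA against one alpha gene also matches another was not tested, since the sgRNA sequences were not used here.

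The interferon receptors gave means close to 0 in both branches. IFNAR1 and IFNAR2, the chains of the type I receptor, had means of -0.066 ± 0.12 and -0.044 ± 0.31. IFNGR1 and IFNGR2, the chains of the type II receptor, had means of -0.015 ± 0.26 and 0.031 ± 0.33. The smallest p of the 4 in either direction was 0.194 (IFNGR2 toward PRMT5 high, Fisher's method). IFNGR1 and IFNGR2 thus did not show the lean of their ligand IFNG, and that difference was not tested.

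Among the 16 interleukin ligands, which signal mainly between immune cells, 11 had a mean above 0 (48.5% of all genes did) and 5 below, with a median of 0.032. Centred on the controls, the split was 9 and 7. Apart from IL1B the lowest mean was -0.11 for IL10, an anti-inflammatory cytokine. The highest was IL12B, the subunit shared by interleukin-12 and interleukin-23, at 0.15 ± 0.21 with 6 of 7 sgRNAs above 0 (p = 0.135, Fisher's method). IL13, a T helper cytokine, had a mean of 0.067 ± 0.43 and p = 0.0153 toward PRMT5 low (adjusted 0.362, Fisher's method), with sgRNAs from -0.55 to 0.56. Its p came from IL13_6, whose ratio was 0.24 and whose variance was at the counting level in both tails.

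IL4, a T helper cytokine that shares a receptor chain with IL13, held the most positive sgRNA of all members. IL4_1 had 6.69 CPM in PRMT5 high and 15.5 CPM in PRMT5 low, a ratio of 1.10 ± 0.93 (SE), and did not pass the one-sided beta-binomial sgRNA test (p = 0.118). IL4_2 had a ratio of 0.15, and the other 5 were below 0: IL4_6 at -0.0795, IL4_7 at -0.13, IL4_5 at -0.15, IL4_3 at -0.19 and IL4_4 at -0.31. The gene mean of 0.057 ± 0.48 turned to -0.12 without IL4_1.

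Of the 12 interleukin receptors, 8 had a mean above 0 (48.5% of all genes did) and 4 below, with a median of 0.015. Without sgRNAs under 20 CPM the split was 6 and 6 and the median -0.020. Of these, 4 had p under 0.05 toward PRMT5 low (IL1R1, IL3RA, IL11RA and IL2RA), where 8.59% of all genes did, and 0 toward PRMT5 high, where 9.30% did. The highest mean was that of IL3RA, the binding chain for interleukin-3, at 0.13 ± 0.15 with p = 0.0102 and adjusted p = 0.322 (Fisher's method). Its sgRNA IL3RA_2 went from 48.5 CPM in PRMT5 high to 63.7 in PRMT5 low (0.39), and without it the p was 0.256. The lowest was IL12RB1, a chain of the interleukin-12 and interleukin-23 receptors, at -0.11 ± 0.22.

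The remaining low p-values among these receptors went with gene means near 0. IL2RA, the high-affinity chain for interleukin-2, had a mean of 0.012 ± 0.25 and p = 0.0374 (Fisher's method). IL11RA, the binding chain for interleukin-11, had a mean of 0.015 ± 0.17 and p = 0.0202 by Fisher's method. The latter came from IL11RA_5, at 175 CPM in PRMT5 high and 216 in PRMT5 low (0.30 ± 0.035, SE), with an adjusted sgRNA p of 0.0730 and a variance at the counting level in both tails. Without it the p of IL11RA was 0.780.

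IL2RB, the signalling chain for interleukin-2 and interleukin-15, showed no net lean at 0.015 ± 0.34. IL2RB_5 had 65.0 CPM in PRMT5 high and 106 in PRMT5 low (0.70), one of the largest ratios among members. IL2RB_4, IL2RB_1 and IL2RB_3 had ratios of 0.081, 0.035 and 0.031, and IL2RB_2, IL2RB_7 and IL2RB_6 had -0.11, -0.27 and -0.37.

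The TNF family ligands were the class in which all gene means fell on 1 side. TNFSF13B, TNFSF11, TNF, TNFSF12, TNFSF4 and TNFSF14 had means of -0.11, -0.091, -0.082, -0.076, -0.071 and -0.063, with a median of -0.079. All 6 were below 0 (51.5% of all genes were), and they remained so with the ratios centred on the controls and with a pseudocount of 5 or 10 CPM. With 1 sgRNA left out, the means of TNFSF11, TNFSF14 and TNFSF13B reached as high as 0.016, 0.013 and 0.0059. Those of TNF, TNFSF12 and TNFSF4 stayed below 0, at -0.033, -0.037 and -0.032 at the highest. Each mean was smaller than the SD over the gene's own sgRNAs, and none was called. Of the 42 sgRNAs, 28 were below 0, next to 4987 of the 9929 targeting sgRNAs. The interferon ligands had a similar split of sgRNAs the other way, with 39 of 61 above 0 and 22 below.

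TNFSF13B, the B cell survival factor BAFF, was the only one of the 6 with p under 0.05 (mean -0.11 ± 0.36, p = 0.00650, adjusted 0.289, Fisher's method). TNFSF13B_4 went from 215 CPM in PRMT5 high to 185 in PRMT5 low (-0.21, p = 0.00127, one-sided beta-binomial sgRNA test), and without it the gene's p was 0.143. TNFSF13B_2 had 33.8 and 19.3 CPM (-0.78), TNFSF13B_3 108 and 98.6 (-0.14) and TNFSF13B_7 62.5 and 54.3 (-0.20). The other TNFSF13B sgRNAs were above 0, with 0.30 for TNFSF13B_1, 0.17 for TNFSF13B_6 and 0.11 for TNFSF13B_5.

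TNFSF11 encodes RANKL, the osteoclast-activating ligand, and its sgRNAs were divided. TNFSF11_4 had 54.6 CPM in PRMT5 high and 32.4 in PRMT5 low (-0.73), while TNFSF11_6 had 139 and 168 (0.28) and TNFSF11_7 51.8 and 62.4 (0.26). TNFSF11_1 was at 0.067, and TNFSF11_2, TNFSF11_5 and TNFSF11_3 were at -0.14, -0.15 and -0.22. Its p was 0.408 toward PRMT5 high and 0.406 toward PRMT5 low (Fisher's method).

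The 9 TNF family receptors were mixed, with 5 means above 0, 4 below and a median of 0.035. The highest was TNFRSF1A, the main TNF receptor, at 0.086 ± 0.35 (p = 0.0685 toward PRMT5 low, Fisher's method), opposite in sign to its ligand TNF. TNFRSF13C, the BAFF receptor, had a mean of -0.015 ± 0.34 but p = 0.0131 toward PRMT5 low (adjusted 0.339, Fisher's method). TNFRSF13C_4 (0.22), with a variance at the counting level in both tails, and TNFRSF13C_1 (0.36) made that p. Sign of mean and direction of p were thus opposed for this gene.

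The lowest receptor was TNFRSF18, a T cell costimulatory receptor also called GITR, at -0.15 ± 0.42 (p = 0.0179 toward PRMT5 high, adjusted 0.417, Fisher's method). TNFRSF18_2 had 79.8 CPM in PRMT5 high and 47.9 in PRMT5 low (-0.72, p = 0.00201, one-sided beta-binomial sgRNA test), and TNFRSF18_7 had 205 and 145 (-0.50). TNFRSF18_5 and TNFRSF18_6 were at -0.47 and -0.12, against 0.41, 0.24 and 0.084 for TNFRSF18_4, TNFRSF18_3 and TNFRSF18_1. Without TNFRSF18_2 the p was 0.251.

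Below the receptors, the JAK-STAT genes held both some of the largest means and the rarest sgRNAs. STAT3, the transcription factor downstream of interleukin-6 type cytokines, lies on chromosome 17 (42313324 to 42388442) and had the lowest mean of all members at -0.29 ± 0.41, or 1.22-fold toward PRMT5 high. With p = 0.0306 and adjusted p = 0.473 (Fisher's method) it was not called. STAT3_4 had 211 CPM in PRMT5 high and 129 in PRMT5 low, a ratio of -0.71 ± 0.20 (SE) with p = 0.00625 in the one-sided beta-binomial sgRNA test.

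The other STAT3 sgRNAs were less abundant, and most of them leaned the same way. STAT3_7 had 46.2 CPM in PRMT5 high and 28.1 in PRMT5 low (-0.69), STAT3_2 had 68.0 and 61.0 (-0.15) and STAT3_6 had 32.2 and 28.9 (-0.15). STAT3_1 had 4.83 and 2.71 CPM (-0.65), STAT3_5 had 15.4 and 15.1 (-0.026) and STAT3_3 had 11.1 and 14.7 (0.38). In all, 6 of 7 were below 0. Without sgRNAs under 20 CPM the mean was -0.43 with p = 0.00939 by Fisher's method, which passes the calling rule, whereas without STAT3_4 the p was 0.227.

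Of the kinases above STAT3, JAK1 and JAK2 had means above 0. JAK1, which serves both interferon branches and the gp130 receptors, had a mean of 0.19 ± 0.31 with 5 of 7 sgRNAs above 0 and p = 0.2499 toward PRMT5 low (Fisher's method). JAK1_5 had 9.50 CPM in PRMT5 high and 16.4 in PRMT5 low (0.73 ± 0.43, SE). The others were JAK1_6 at 0.32, JAK1_7 at 0.31, JAK1_2 at 0.24, JAK1_3 at 0.061, JAK1_4 at -0.16 and JAK1_1 at -0.18. No JAK1 sgRNA had p under 0.05 in either direction.

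JAK2, the kinase of the interferon gamma and erythropoietin receptors among others, had sgRNAs past the sgRNA test in opposite directions. JAK2_1 had 104 CPM in PRMT5 high and 145 in PRMT5 low (0.48, p = 0.00167 toward PRMT5 low), while JAK2_5 had 129 and 110 (-0.22, p = 0.0238 toward PRMT5 high) and JAK2_6 had 96.9 and 81.7 (-0.24, p = 0.0246), all in the one-sided beta-binomial sgRNA test. JAK2_3 was at 0.54, JAK2_2 at 0.11, JAK2_4 at 0.10 and JAK2_7 at 0.020. The gene mean was 0.11 ± 0.31 with p = 0.0514 toward PRMT5 low and 0.216 toward PRMT5 high (Fisher's method).

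JAK3 and TYK2 had means slightly below 0. JAK3, the partner of the common gamma chain in lymphocytes, had a mean of -0.032 ± 0.31, from sgRNAs JAK3_2 (0.50, at 13.8 and 19.9 CPM), JAK3_6 (0.14), JAK3_4 (0.12), JAK3_5 (-0.081), JAK3_1 (-0.17), JAK3_3 (-0.29) and JAK3_7 (-0.44). TYK2, a kinase of the type I interferon and interleukin-12 receptors, had a mean of -0.0025 ± 0.28. TYK2_5, TYK2_6, TYK2_1 and TYK2_4 were at 0.28, 0.25, 0.18 and 0.10, and TYK2_3, TYK2_2 and TYK2_7 at -0.087, -0.34 and -0.40. No sgRNA of either kinase had p under 0.05.

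The members also differed in how abundant their sgRNAs were in both tails together. Genes were ranked from 1 to 1420 by the mean of log2 CPM over their sgRNAs, with rank 1 the rarest. The cytokine members were mostly abundant, with a median rank of 1027. Among the 142 most abundant genes, by construction 10.0% of all, were 19 of the 61 (31.1%), and 5 (8.20%) were among the 142 rarest. The median member sgRNA had 97.6 CPM in PRMT5 high, next to 85.0 CPM for all targeting and 123 CPM for control sgRNAs.

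The 5 members among the 142 rarest genes were IL6ST, STAT3, JAK1, IL6R and JAK3. IL6ST, which encodes gp130, the signalling chain shared by the interleukin-6 family, ranked 19 with a mean of 29.8 CPM in PRMT5 high and 28.1 in PRMT5 low. STAT3 ranked 26 (55.5 and 39.9 CPM), JAK1 ranked 54 (52.0 and 58.9 CPM) and IL6R, the binding chain for interleukin-6, ranked 64 (52.8 and 55.4 CPM). These 4 genes act in interleukin-6 signalling through gp130, while JAK3, at rank 141, serves the common gamma chain. The median JAK-STAT sgRNA had 59.8 CPM in PRMT5 high.

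The low values were spread over most sgRNAs of these genes. The IL6ST sgRNAs had, from IL6ST_1 to IL6ST_7, 7.83, 25.1, 20.8, 83.5, 6.85, 35.6 and 28.7 CPM in PRMT5 high and 9.99, 19.2, 17.1, 70.0, 9.75, 39.3 and 31.5 CPM in PRMT5 low. The IL6R sgRNAs had, from IL6R_1 to IL6R_7, 32.5, 125, 6.58, 48.4, 91.7, 27.3 and 37.8 CPM in PRMT5 high and 32.8, 106, 4.99, 75.5, 87.0, 33.0 and 47.9 CPM in PRMT5 low. For IL6ST all 7 sgRNAs were thus below the median of the controls in both tails. In JAK1 1 sgRNA exceeded it, JAK1_2 with 189 and 222 CPM, and in STAT3 1 did, STAT3_4 with 211 and 129 CPM.

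Other genes of interleukin-6 type signalling were not rare. IL6, the secreted ligand, ranked 1137 (105 and 109 CPM) with a mean ratio of 0.048 ± 0.16. IL11RA, a receptor that also signals through gp130, ranked 1405 (152 and 155 CPM). JAK2 and TYK2, further kinases of gp130, ranked 1067 and 1317. In ratio, IL6ST and IL6R were near the centre, with means of 0.021 ± 0.32 and 0.085 ± 0.34. Cells from before the culture were not analysed here, so an sgRNA that was rare in the library from the start cannot be told apart from one that was lost in culture.

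Interferon genes and receptors made up 9 of the 19 most abundant members, and the other 10 were interleukins, receptors of other classes and TYK2. IFNA7 ranked 1420, the highest of all genes screened by the mean of log2 CPM, with 178 CPM in PRMT5 high and 196 in PRMT5 low. By plain mean CPM in PRMT5 high it was not the highest, as the top value over all genes was 195. IFNA5 ranked 1418 with 167 and 173 CPM. Of the 8 alpha interferon genes 6 were among the 142 most abundant genes, as were IFNAR1, IFNAR2 and IFNGR1 among the 4 interferon receptors, whereas IFNA1, IFNA4 and IFNG, at ranks 774, 1099 and 1155, were not. JAK1, which these receptors use, was at the other end. Ranked by the median over sgRNAs in place of the mean, IFNA7 and IFNA5 were at 1399 and 1378 and IL6ST, STAT3, JAK1 and IL6R at 18, 27, 55 and 68, but JAK3 moved to 261 and left the 142 rarest.

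Some related genes of the library are not matched by the symbol rule. The 7 TNF family genes under other names (such as LTA and CD40) had a median gene mean of -0.055 with 1 above 0. Their 49 sgRNAs were evenly split, with 24 above 0, 25 below and a median ratio of -0.0066. Of the 7 genes, 2 passed p under 0.05 toward PRMT5 high (9.30% of all genes did). These were CD40LG (mean -0.087, p = 0.0345) and NGFR (mean -0.00034, p = 0.0388, Fisher's method). The 12 relays below the TNF and interleukin-1 receptors had a median of -0.0015 with 6 above 0. Among them IRAK3, an inhibitor of interleukin-1 receptor signalling, passed toward PRMT5 high (mean -0.0063, p = 0.0123) and BIRC3, a ubiquitin ligase of TNF signalling, toward PRMT5 low (mean 0.15, p = 0.0201, Fisher's method), where 9.30% and 8.59% of all genes did. None of the genes in these lists was called.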

How the data were processed

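The screen sequenced sgRNAs from genomic DNA of PRMT5 high and PRMT5 low COV362 cells, in 4 libraries each. Reads were aligned by the authors to the sgRNA sequences, and they compared the tails with CB2. FastQC and hg38 are named in the submitters' processing notes, while their versions, and those of CB2, are not given here. The deposited CPM values are the authors' means over the libraries of a tail. The deposited fraction of an sgRNA is its estimated share of the reads, with a variance over the libraries. Columns of log2 ratios, scores and p-values, and the table per gene, hold the authors' own comparisons and were not used.

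From CPM, with a pseudocount of 1, log2 ratios were computed. The sgRNA test of CB2, which models reads as beta-binomial, divided the difference of fractions by its SE and used a t distribution with Welch degrees of freedom, one-sided. Gene p-values combined sgRNA p-values by Fisher's method, and gene means were unweighted. Benjamini-Hochberg adjustment covered 1420 genes or all 10429 sgRNAs. Python 3.11.15, numpy 2.4.6, scipy 1.17.1 and pandas 2.3.3 were used, and scripts were tested on simulated data. Depth was about 4041715 and 4779349 reads per PRMT5 high and PRMT5 low library. PCR reads carry no molecular identifiers, so the errors cover counting and the spread between libraries of 1 transduction, which may be technical.

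All 61 gene symbols were found in RefSeq (GRCh38.p14), from which positions come. Each named gene met 1 of these rules: it was called, it had a p under 0.05 or a mean beyond 0.2, it was highest or lowest of its class, or it belonged to the interferon, interleukin-1, gp130 or JAK-STAT groups. A summary of the other JAK-linked cytokine genes is not reported here. Genes given in passing were chosen after their values were seen. The members and lists were chosen with earlier results of these data known.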

Additional observations from a re-analysis of the deposited data

How the results depend on the processing

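The count of 1 gene called toward PRMT5 high (IL1B) became 0 with a pseudocount of 5 or 10 CPM, with the median over sgRNAs, with sgRNA variances held at or above their trend with abundance (p = 0.0656, Fisher's method), at an adjusted p of 0.10, and when a call had to hold with each sgRNA left out in turn. It became 2, IL1B and STAT3, without sgRNAs under 20 CPM, a setting for which the share over all genes was not computed. At an adjusted p of 0.10, 1 of 425 member sgRNAs passed toward PRMT5 high and 1 toward PRMT5 low. Of the 9929 targeting sgRNAs, 15 and 18 did. With variances held at their trend, 10 member sgRNAs passed toward PRMT5 high and 15 toward PRMT5 low, and the shares over all targeting sgRNAs were not computed. Of 312 pairs of a named gene and an alternative, 280 kept direction and side of the threshold, 5 were weaker, 1 was stronger and 26 changed sign, over 17 genes. Many pairs had little room to change. Of the named genes only IL1B was called, so only IL1B could become weaker. Variances held at their trend and Stouffer's method of combining p-values leave the mean unchanged, so neither could change a sign. The limit of 20 CPM could change only genes with rarer sgRNAs. IL1B had -0.24 and -0.22 with the larger pseudocounts, -0.21 as a median and -0.15 without IL1B_3. STAT3 had -0.43 without rare sgRNAs. Centring on the controls or a pseudocount of 10 CPM moved the split of gene means from 32 above and 29 below 0 to 30 and 31.

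Among the named genes, signs changed only where the mean lay between -0.11 and 0.085. With a pseudocount of 10 CPM, IL6ST became -0.0097 and IL4 -0.0078, and without sgRNAs under 20 CPM they became -0.088 and -0.12. As medians over sgRNAs, IFNA10 was 0.037, IFNA6 0.025, TYK2 0.10, IL11RA -0.0098, IL6 -0.0028 and IL4 -0.13. Each gene was also computed without the sgRNA whose absence gave the largest p in the direction of its mean. IFNA10 was then 0.045, IFNA2 0.029, IFNA4 0.0023, IFNGR1 0.041, IFNGR2 -0.058, IL11RA -0.033, IL2RA -0.012, IL2RB -0.099, IL4 -0.12, IL6 -0.0026, IL6R -0.0059, IL6ST -0.051, JAK3 0.037, TNFRSF13C 0.028, TNFSF11 0.016 and TYK2 0.054. For TNFRSF13C the sgRNA left out here was TNFRSF13C_5, not TNFRSF13C_4. The causes were not tested. Ranks by the median over sgRNAs or in a single tail, alternatives chosen after seeing the data, left 16 or 17 members among the 142 most abundant genes and 4 or 5 among the 142 rarest.

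No paired analysis was possible because the columns hold values pooled over the 4 libraries of a tail. Leaving out each library and keeping only sgRNAs with a single match in the genome were not run for want of library values and sgRNA sequences. Depth limits mainly the 16 member sgRNAs under 20 CPM, 7 of them against JAK-STAT genes.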

Other observations

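Several members are neighbours in the genome (GRCh38.p14), and their ratios are given here as a description. TNFRSF18 and TNFRSF4, 4748 bp apart on chromosome 1, had the lowest means among the 25 receptors, -0.15 and -0.13. IL5, IL13 and IL4, side by side on chromosome 5 with gaps of 99707 and 12879 bp, had means of 0.068, 0.067 and 0.057. IL1A and IL1B, 45258 bp apart on chromosome 2, had means of 0.11 and -0.25, and IL1R2 and IL1R1, 41846 bp apart on the same chromosome, had -0.059 and 0.13. IFNA7 and IFNA10, 3976 bp apart on chromosome 9, had 0.16 and -0.11. Nearby members thus had close means in some pairs and opposite signs in others, and the differences were not tested.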
